A study of Mus musculus with 96 samples.

Results

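The genes Th, Ddc, Slc6a3, Slc18a2, Aldh1a1, Ret, Sncg, En1 and Nr4a2 are used as markers of midbrain dopamine neurons, and their expression was followed across dissections of the mouse brain, mouse strains and an antipsychotic treatment. All 9 genes of the list were found, each with 1 transcript cluster (the set of probes that stands for a gene on the array), among 18810 genes with a named cluster and 28310 clusters in all. The animals were 16 male mice aged 14 weeks, 8 of the inbred strain NOD/ShiLtJ, whose mice are prone to autoimmune diabetes, and 8 of C57BL/6J. In each strain 4 mice had received 4 mg/kg of clozapine, an atypical antipsychotic that blocks dopamine and serotonin receptors, and 4 had received vehicle, by injection into the peritoneum 3 hours before they were killed. Each mouse gave 3 samples, the hindbrain and the forebrain dissected from one side of the brain, and the undissected opposite side, named whole brain. The cerebellum had been removed from all of them and the olfactory bulbs left attached. The piece called hindbrain was scooped out with forceps and includes the midbrain. All 48 RNA samples were measured on Affymetrix Mouse Gene 1.1ST arrays, whose values are given unless stated, and again on 1.0ST arrays with nearly the same probes. Values are log2 intensities, differences between groups are on the same log2 scale, and levels of different genes are not comparable because each has its own probes.

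Dopamine neurons sit mainly in the substantia nigra and the ventral tegmental area of the midbrain and send axons to the striatum and cortex, so most of their RNA stays in the midbrain while the dopamine itself is released in the forebrain. Tyrosine hydroxylase (Th) makes L-DOPA from tyrosine, aromatic amino acid decarboxylase (Ddc) turns it into dopamine, the vesicular monoamine transporter (Slc18a2) loads it into vesicles and the dopamine transporter (Slc6a3) takes it back up after release. Th, Ddc and Slc18a2 also serve noradrenaline or serotonin neurons, and the olfactory bulb holds dopamine neurons of its own that express Th, whereas Slc6a3 is largely restricted to dopamine neurons. In homogenised tissue, fewer dopamine neurons and less RNA per neuron cannot be told apart.

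Several arrays stood apart from others of their dissection. The forebrain of mouse DD678 (NOD/ShiLtJ, clozapine) had the highest mean over the 9 genes of any forebrain, 7.97 against 6.79 to 7.29 in the other 15, together with the highest means of the cerebellum (7.08 against 5.61 to 6.12) and thalamic markers (9.02 against 7.75 to 8.57). The whole brain of DD656 (NOD/ShiLtJ, vehicle) had the highest mean of the 9 genes among whole brains (9.10 against 7.69 to 8.84) and the lowest mean of the striatal markers (8.66 against 9.01 to 10.43), and the whole brain of BB707 (C57BL/6J, vehicle) came next in both. The hindbrain of BB685 (C57BL/6J, clozapine) had the lowest mean of the 9 genes (8.65 against 9.05 to 9.64) and the highest of the striatal markers (10.13 against 8.55 to 9.11). Markers of cerebellum, although it had been removed, ranged between 6.39 and 10.28 over the hindbrains. In the arrays named, the marker means given and the mean of the 9 genes stood apart together, on the same or on opposite sides. These arrays and lists were picked for their extreme values out of all marker lists, and the other lists are not given here. A relation between them over all pieces was not tested. Results that gain or lose a call without a single mouse or array are given with its name.

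In the hindbrain, 8 of the 9 genes were more highly expressed than in the forebrain, and Nr4a2 was lower there. Each of the 9 differences had the same direction in 16 of 16 mice and passed an FDR of 0.05 in the model fitted across all clusters with limma. Of all clusters, 33.1% were called higher in hindbrain and 32.5% lower, so a call as such is common in this comparison. The median difference of the 9 genes was 2.34 on the log2 scale, against -0.01 over all clusters, where calls in both directions nearly balance. Of other marker lists, serotonin neurons (median 2.54) and thalamic neurons (median 2.20) had differences of like size. Single genes of glycinergic and motor neurons ran between 0.02 and 5.04. Further dopamine neuron genes, cofactor and breakdown enzymes and noradrenaline neuron markers, given below, had smaller median differences. The size is thus shared with some other lists and is not particular to the dopamine neuron genes. Differences below are hindbrain minus forebrain on the log2 scale over 16 mice, with the SE of the fit, and the largest FDR of the 9 was 3.95e-13, for Th.

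The transporters showed the largest contrast. Slc6a3 lay between 9.07 and 10.82 in hindbrains (median 10.04), between 5.90 and 9.77 in whole brains (median 8.65) and between 5.37 and 7.71 in forebrains (median 5.74). All hindbrains were above all forebrains, while the whole brains spread over the widest range of any of the genes and reached into both. The difference was 4.05 (SE 0.26), or 16.6-fold, and varied between 1.37 in mouse DD678 and 5.28 among single mice. Slc18a2 ranged between 8.31 and 9.71 in hindbrains (median 9.34), between 6.70 and 8.74 in whole brains (median 7.54) and between 4.98 and 6.93 in forebrains (median 5.54). Again no hindbrain overlapped a forebrain, and the difference was 3.59 (SE 0.15), or 12.1-fold. For both transporters the forebrain median lay below the array medians of 6.28 to 6.61. Their forebrain signal was thus low, which limits the precision of the folds.

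**Figure D1:**
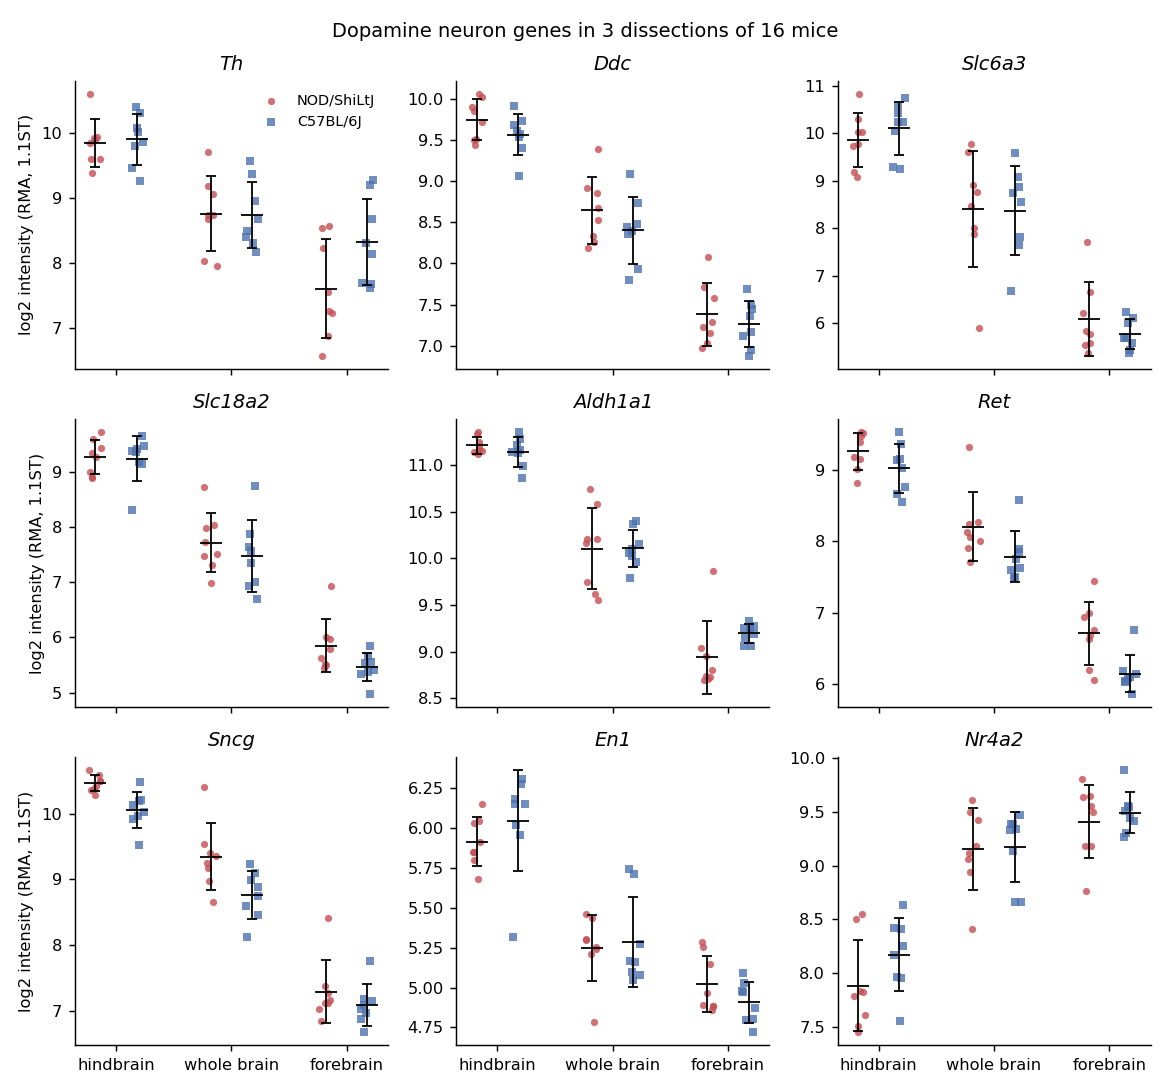
Log2 intensity of the 9 genes on the 1.1ST arrays (y axis, own scale per gene) in hindbrain, whole brain and forebrain (x axis), with a point per mouse, circles for NOD/ShiLtJ and squares for C57BL/6J, and bars for the mean ± SD of 8 mice. For 8 genes hindbrains lie highest and forebrains lowest, and for Nr4a2 the order is turned round.

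The enzymes of dopamine synthesis differed less. Th was measured between 9.26 and 10.61 in hindbrains (median 9.89), between 7.95 and 9.71 in whole brains (median 8.71) and between 6.57 and 9.27 in forebrains (median 7.92). Of the 256 pairs of a hindbrain and a forebrain, 255 had the higher value in the hindbrain, the exception being the hindbrain of BB685 (9.26) and the forebrain of BB707 (9.27). The difference was 1.92 (SE 0.19), or 3.78-fold, and its SD between mice, 0.83, was larger than that of Ddc, 0.38. Ddc had values of 9.07 to 10.06 in hindbrains (median 9.65), 7.79 to 9.39 in whole brains (median 8.46) and 6.88 to 8.08 in forebrains (median 7.26). Here hindbrains and forebrains were fully separate, with a difference of 2.34 (SE 0.11), or 5.06-fold.

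Among the other genes of the mature neuron, Aldh1a1, a retinaldehyde dehydrogenase found in a subset of nigral dopamine neurons, was 10.86 to 11.35 in hindbrains (median 11.16), 9.55 to 10.74 in whole brains (median 10.12) and 8.70 to 9.86 in forebrains (median 9.06). Its hindbrains were the most uniform of the 9 genes (SD 0.13), and the difference was 2.10 (SE 0.09), or 4.30-fold. Sncg, which encodes gamma-synuclein and is also expressed in other brainstem and sensory neurons, was 9.52 to 10.66 in hindbrains (median 10.33), 8.13 to 10.40 in whole brains (median 9.05) and 6.68 to 8.41 in forebrains (median 7.12). It was 8.41-fold higher in hindbrain (3.07, SE 0.12). Ret, the receptor tyrosine kinase for the GDNF family of growth factors, which motor neurons express as well, was 8.55 to 9.53 in hindbrains (median 9.15), 7.49 to 9.32 in whole brains (median 7.90) and 5.86 to 7.45 in forebrains (median 6.19). Its difference was 2.71 (SE 0.12), or 6.55-fold, and for all 3 genes the lowest hindbrain exceeded the highest forebrain. The forebrain median of Ret also lay below the array medians of 6.28 to 6.61.

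The transcription factors went opposite ways. En1, a homeobox gene needed for the survival of midbrain dopamine neurons, was between 5.32 and 6.31 in hindbrains (median 6.03), between 4.78 and 5.74 in whole brains (median 5.25) and between 4.72 and 5.28 in forebrains (median 4.93). The lowest hindbrain, that of BB685, was 0.03 above the highest forebrain, and the difference was 1.02 (SE 0.07), or 2.02-fold. The En1 median of each dissection lay below the array medians of 6.28 to 6.61, so its signal was low throughout. Nr4a2, a nuclear receptor needed for dopamine neurons to form that many neurons of the cortex also express, was between 7.45 and 8.63 in hindbrains (median 7.96), between 8.41 and 9.61 in whole brains (median 9.26) and between 8.76 and 9.89 in forebrains (median 9.50). Every hindbrain was below every forebrain, and the difference was -1.42 (SE 0.11), which is 2.68-fold lower in hindbrain.

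**Figure D2:**
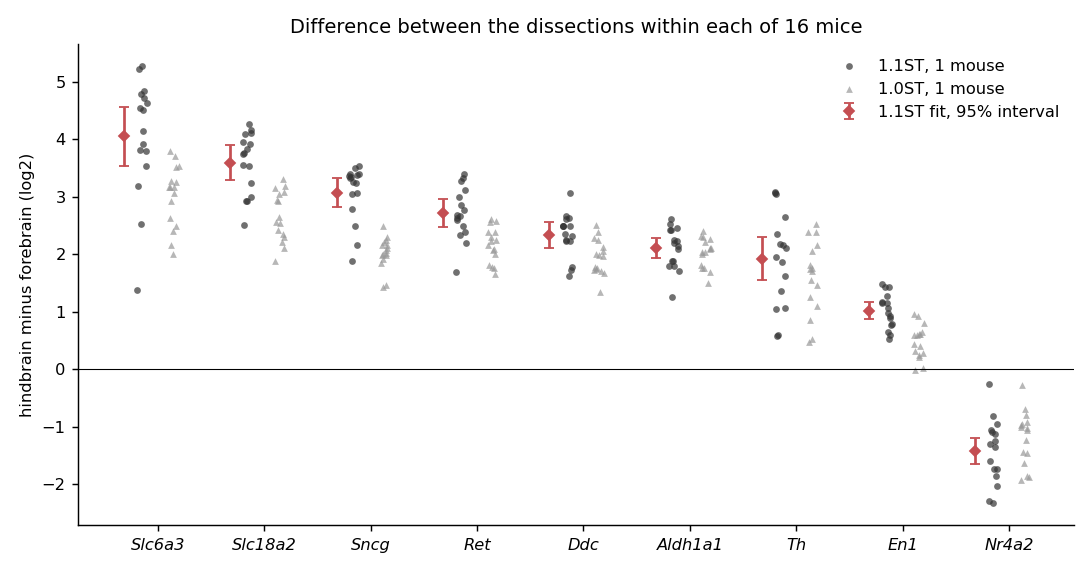
Hindbrain minus forebrain of the same mouse (y axis, log2) for each gene (x axis), with dark circles for 16 mice on the 1.1ST arrays, grey triangles for the same mice on the 1.0ST arrays and red diamonds for the fitted difference with its 95% interval. The differences run between 4.05 for Slc6a3 and -1.42 for Nr4a2, and the 1.0ST differences are smaller for each gene.

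On the 1.0ST arrays the same RNA gave the same 9 directions with smaller differences, 3.02 for Slc6a3, 2.67 for Slc18a2, 2.02 for Sncg, 2.16 for Ret, 1.96 for Ddc, 2.03 for Aldh1a1, 1.61 for Th, 0.48 for En1 and -1.20 for Nr4a2. Over the 48 samples, values on both formats correlated with an r of 0.98 to 0.99 for all genes but En1 (0.78), as a description of repeat measurements that share the difference between dissections. For En1 the r was 0.01 within forebrains, so differences between single forebrains were not repeatable for this gene. Within forebrains it was also lower for Slc18a2 (0.52), Ddc (0.53), Sncg (0.60) and Slc6a3 (0.77). For Aldh1a1, Ret, Nr4a2 and Th it was 0.85 to 0.98 there. Within whole brains r was 0.33 for En1 and 0.95 to 0.99 for the others. Within hindbrains it was 0.65 for En1, 0.745 for Aldh1a1, 0.83 for Ddc and 0.94 to 0.99 for the others.

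Other genes of the pathway were taken from lists. Of 20 measured genes of midbrain dopamine neurons beyond the 9, 14 were higher in hindbrain, 3 were lower and 3 were not called, with a median difference of 0.59. Chrna6, a nicotinic receptor subunit concentrated in dopamine neurons, rose most (2.60, SE 0.16), followed by Dlk1, a secreted and membrane-bound ligand related to the Notch ligands (1.96, SE 0.12), and En2, the paralog of En1 (1.78, SE 0.18), which is also expressed in cerebellum. Kcnj6, an inwardly rectifying potassium channel that cortical neurons express too, was lower (-0.92, SE 0.09), as was Drd2 (-0.70, SE 0.10), which is both an autoreceptor of dopamine neurons and a receptor of striatal neurons, and Sox6 (-0.12, SE 0.04). Pitx3, a transcription factor of these neurons, had a difference of 0.01 (SE 0.04, FDR 0.246 with limma), and its values were 5.09 to 5.51 in hindbrains and 5.14 to 5.44 in forebrains. All of these values lay below the array medians of 6.28 to 6.61, so the signal was low and a difference may not have been measurable. The ranges of this defining gene overlapped between the dissections, unlike those of Slc6a3.

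All 7 measured enzymes that make or recycle the Th cofactor tetrahydrobiopterin or break dopamine down were higher in hindbrain, with a median difference of 0.67. Pcbd1, which recycles the cofactor, differed by 2.04 (SE 0.09), Qdpr, which reduces it, by 0.74 (SE 0.05) and Maob, a monoamine oxidase, by 0.71 (SE 0.06). Of the 5 dopamine receptor genes, 3 had lower values in hindbrain and no gene was called higher, with Drd1, the main receptor of the direct striatal pathway, at -2.33 (SE 0.18) and Drd4 at -0.15 (SE 0.05). Markers of neurons that share genes with dopamine neurons moved the same way as the 9 genes other than Nr4a2. Of all clusters, 33.1% were called higher in this comparison. Among serotonin neuron markers 4 of 4 measured were higher in hindbrain, including Tph2 (3.15, SE 0.28) and Slc6a4 (2.78, SE 0.28). So were both measured noradrenaline neuron markers, Dbh (1.76, SE 0.19) and Slc6a2 (0.80, SE 0.10). The part of serotonin and noradrenaline neurons in the differences of Th, Ddc and Slc18a2 was not tested.

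Promoter windows of the 9 genes were searched for short motifs, and a link of motifs to the differences between dissections was not tested. RefSeq windows on GRCm38.p6, 250 bases before to 50 after a start, were at hand for 8 of the 9 genes, with 10 windows in all. The motifs searched on both strands were TGACGTCA, the cyclic AMP response element, and its near variant TGACATCA, AAAGGTCA, to which Nr4a2 and its relatives bind, AGGTCA, which lies within it, the homeodomain motifs TAATTA and TAATCC, the TATA box TATAAA and the GC box GGGCGG. TGACGTCA was in the windows of Th and Slc18a2 and in 1.79% of 32851 mouse windows, with its first base 45 bases before the start in Th and 4 bases before it in Slc18a2. AAAGGTCA was in a window of Ddc and in 1.51% of all windows. In Ddc it lay on the reverse strand and is printed as TGACCTTT, whose first printed base is 73 bases before the start. The 3 windows are shown with these motifs in capitals, for Th at chr7:142899946-142900245 on the minus strand, for Slc18a2 at chr19:59260628-59260927 on the plus strand and for Ddc at chr11:11898095-11898394 on the minus strand.
Th: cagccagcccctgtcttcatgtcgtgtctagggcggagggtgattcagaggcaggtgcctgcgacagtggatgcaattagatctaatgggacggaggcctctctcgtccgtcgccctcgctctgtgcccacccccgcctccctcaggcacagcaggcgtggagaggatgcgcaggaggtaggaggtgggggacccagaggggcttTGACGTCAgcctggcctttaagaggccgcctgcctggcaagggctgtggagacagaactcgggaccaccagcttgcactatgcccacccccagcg
Slc18a2: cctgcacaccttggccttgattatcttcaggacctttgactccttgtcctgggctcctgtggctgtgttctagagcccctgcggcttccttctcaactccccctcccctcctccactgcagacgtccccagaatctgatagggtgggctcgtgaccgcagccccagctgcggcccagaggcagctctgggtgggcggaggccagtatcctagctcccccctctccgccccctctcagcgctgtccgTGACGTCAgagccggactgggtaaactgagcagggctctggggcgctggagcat
Ddc: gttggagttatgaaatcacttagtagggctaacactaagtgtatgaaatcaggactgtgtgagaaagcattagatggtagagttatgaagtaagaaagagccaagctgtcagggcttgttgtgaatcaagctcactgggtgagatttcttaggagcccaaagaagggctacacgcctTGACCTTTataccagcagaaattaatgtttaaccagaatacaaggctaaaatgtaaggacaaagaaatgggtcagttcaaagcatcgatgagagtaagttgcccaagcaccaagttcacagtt

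Of the other motifs, GGGCGG was in the windows of Nr4a2, Slc18a2, Slc6a3, Sncg and Th and in 35.7% of all windows, TATAAA in those of Ddc and Nr4a2 and in 13.6%, and AGGTCA in that of Ddc and in 16.3%. TGACATCA (3.62% of all windows), TAATTA (5.29%) and TAATCC (7.06%) were in none of the 10. A match is a run of letters and not a measured binding site, and these arrays hold no measurement of binding.

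In whole brain, the same 8 genes were higher than in forebrain and Nr4a2 was lower, where 12.3% of all clusters were called higher and 7.65% lower with limma. Slc6a3 differed by 2.46 (SE 0.26), Slc18a2 by 1.94 (SE 0.15), Sncg by 1.87 (SE 0.12), Ret by 1.57 (SE 0.12), Ddc by 1.20 (SE 0.11), Aldh1a1 by 1.03 (SE 0.09), Th by 0.79 (SE 0.19) and En1 by 0.30 (SE 0.07). The order of the genes was that between hindbrain and forebrain, and all of the 16 mice had the higher value in whole brain for Ddc, Slc18a2, Aldh1a1, Ret and Sncg, 15 for Slc6a3 and 14 for Th and En1. The Nr4a2 difference of -0.29 (SE 0.11, FDR 0.0466 with limma) was negative in 12 of 16 mice and kept its call under 12 of 30 settings only. The call was lost without any one of BB685, BB687, BB703, BB707, DD657, DD676, DD677 or DD678, and without the whole brain of DD656. In C57BL/6J alone Th differed by 0.42 (FDR 0.251), and in NOD/ShiLtJ alone En1 by 0.23 (FDR 0.0991), both below the threshold for a call.

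Between hindbrain and whole brain the 8 genes were again higher in hindbrain and Nr4a2 lower, where 26.8% of all clusters were called higher and 20.6% lower. The differences lay closer together, 1.65 (SE 0.15) for Slc18a2, 1.59 (SE 0.26) for Slc6a3 and between 1.07 and 1.20 for Sncg, Ret, Ddc, Th and Aldh1a1, with 0.71 (SE 0.07) for En1 and -1.14 (SE 0.11) for Nr4a2. The full order of hindbrain over whole brain over forebrain held in 16 of 16 mice for Ddc, Slc18a2, Aldh1a1 and Ret, in 15 for Slc6a3 and Sncg and in 14 for Th and En1, and the reverse order held in 11 for Nr4a2. On the linear scale, the whole brain of a mouse stood at a median of 37.6% of the way up between its forebrain and hindbrain for Slc6a3, 33.7% for Ret, 33.0% for Sncg and 18.5% for En1. Single mice were far from these medians, with the Slc6a3 share at -1.53% in DD676 and 90.4% in DD659, and the Sncg share at 102% in DD656, and each share sets 1 hemisphere against the other.

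The Th values of the forebrain were the most variable of the 9 genes in that dissection (SD 0.79). They were set against the mean of 5 olfactory bulb markers (Eomes, Cdhr1, Doc2g, Tbx21 and Sp8, genes of mitral, tufted or local neurons of the bulb), a relation chosen after the values were seen. With both measures centred within strain, Th and the marker mean had a Pearson r of 0.95 and a Spearman rho of 0.92 over 16 forebrains. Both had a permutation p of 1e-05, the smallest the permutations can give, and a Benjamini-Hochberg adjusted p of 9e-05 over the 9 genes. Without BB687 and BB707, the forebrains farthest from the median of the marker mean, r was 0.93. Within the strains it was 0.94 in NOD/ShiLtJ (exact permutation p = 0.000149, n = 8) and 0.97 in C57BL/6J (exact permutation p = 0.000223, n = 8), and on the 1.0ST arrays 0.97 over both. None of the other 8 genes passed the adjusted threshold on the 1.1ST arrays, where their r lay between -0.44 for Nr4a2 and 0.41 for Slc6a3, whereas Slc6a3 passed on the 1.0ST arrays (r = 0.69, permutation p = 0.00468, adjusted p = 0.0211), where r fell to 0.55 without BB687 and BB707.

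**Figure D3:**
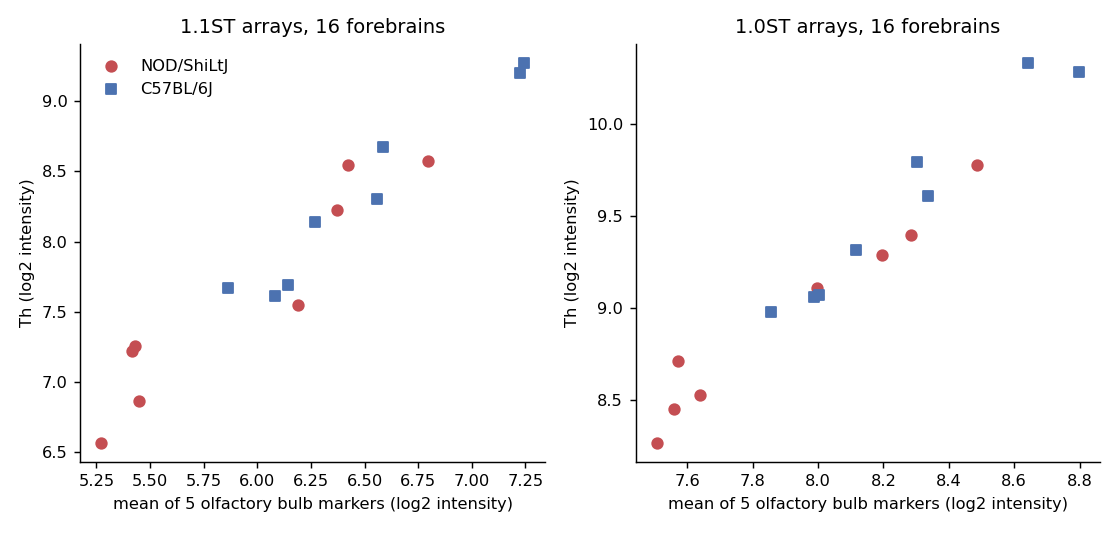
Log2 intensity of Th (y axis) against the mean log2 intensity of 5 olfactory bulb markers (x axis) in 16 forebrains, 1.1ST arrays on the left and 1.0ST arrays on the right, with circles for NOD/ShiLtJ and squares for C57BL/6J. Th and the marker mean rise together in both strains and on both formats.

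Within a dissection, variation between mice was compared among the genes by correlating each with Slc6a3 after centring within strain, in 24 relations of 8 genes and 3 dissections. In hindbrain Th followed Slc6a3 most closely, with r = 0.91 (permutation p = 1e-05, adjusted p = 0.00024) and rho = 0.84 (permutation p = 9e-05). Without DD657 and DD678 r was 0.92, and it was 0.88 in NOD/ShiLtJ and 0.95 in C57BL/6J. Ret also passed in hindbrain (r = 0.63, permutation p = 0.0124, adjusted p = 0.0424, rho = 0.61 with permutation p = 0.0201 and adjusted p = 0.0690), so that its rank correlation did not pass. En1 (r = 0.57) and Slc18a2 (r = 0.56) did not pass the adjustment there, and Sncg and Aldh1a1 had the lowest r, 0.25 and 0.23. On the 1.0ST arrays of the same hindbrains Th (r = 0.92) and Ret (r = 0.61) passed again, and so did Slc18a2 (r = 0.70, permutation p = 0.00356, adjusted p = 0.0142), En1 (r = 0.69, permutation p = 0.0035, adjusted p = 0.0142) and Aldh1a1 (r = 0.57, permutation p = 0.0234, adjusted p = 0.0467), whereas Sncg was at 0.08. Without DD657 and DD678, Aldh1a1 (r = 0.48, permutation p = 0.146, adjusted p = 0.265) and Ret (r = 0.64, permutation p = 0.0178, adjusted p = 0.0534) no longer passed there.

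In whole brain 5 genes passed. Slc18a2 had r = 0.82 (permutation p = 0.00036, adjusted p = 0.00432) and rho = 0.92 (permutation p = 3e-05), and Ddc had r = 0.77 (permutation p = 0.00095, adjusted p = 0.0066) and rho = 0.82 (permutation p = 0.00037). Ret had r = 0.73 (permutation p = 0.00881, adjusted p = 0.0352) and rho = 0.88 (permutation p = 6e-05), En1 had r = 0.73 (permutation p = 0.0011, adjusted p = 0.0066) and rho = 0.71 (permutation p = 0.00157), and Th had r = 0.68 (permutation p = 0.00626, adjusted p = 0.0300) and rho = 0.73 (permutation p = 0.00266). Leaving out BB703 and DD676, the whole brains farthest from the median of Slc6a3, gave 0.86 for Slc18a2, 0.78 for Ddc, 0.76 for Ret, 0.61 for En1 and 0.83 for Th, of which En1 no longer passed (adjusted p = 0.0558). On the 1.0ST arrays of the same whole brains En1 did not pass either (r = 0.26, permutation p = 0.292, adjusted p = 0.438), the other 4 passed again, and Aldh1a1 passed as well (r = 0.63, permutation p = 0.0154, adjusted p = 0.0371). Aldh1a1 did not pass there without BB703 and DD676 (r = 0.48, permutation p = 0.0965, adjusted p = 0.211). In forebrain none of the 8 genes passed over all mice. Without DD657 and DD678 the r of Slc18a2, Aldh1a1 and Ret, which had been 0.69, 0.80 and 0.56, lay between -0.09 and -0.04, while that of Th was 0.63, against 0.53 with them. On the 1.0ST arrays of the forebrains Th (r = 0.66, permutation p = 0.00752, adjusted p = 0.0201) and En1 (r = 0.66, permutation p = 0.0069, adjusted p = 0.0201) passed. Neither passed there without BB687 and DD678, with r = 0.55 for Th (permutation p = 0.0528, adjusted p = 0.141) and 0.51 for En1 (permutation p = 0.0763, adjusted p = 0.183). The r of En1 on the 1.1ST arrays of the same forebrains was 0.17. In NOD/ShiLtJ alone, which holds both DD657 and DD678, Aldh1a1 (r = 0.91, exact permutation p = 0.0088, adjusted p = 0.0423), Slc18a2 (r = 0.90, exact permutation p = 0.0116, adjusted p = 0.0440) and Ddc (r = 0.82, exact permutation p = 0.0128, adjusted p = 0.0440) passed in forebrain (n = 8). On the 1.0ST arrays of these forebrains r was 0.75 for Aldh1a1, -0.18 for Slc18a2 and 0.63 for Ddc, and none of these passed. All relations share the size and place of the dissected piece and pool clozapine and vehicle mice. The part of either was not tested. In whole brain, clozapine minus vehicle was -0.95 for Slc6a3, -0.59 for Th, -0.43 for Slc18a2 and -0.35 for Ret. It was -0.24 for En1, -0.21 for Ddc, -0.02 for Aldh1a1, 0.01 for Sncg and 0.32 for Nr4a2, with none called.

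**Figure D4:**
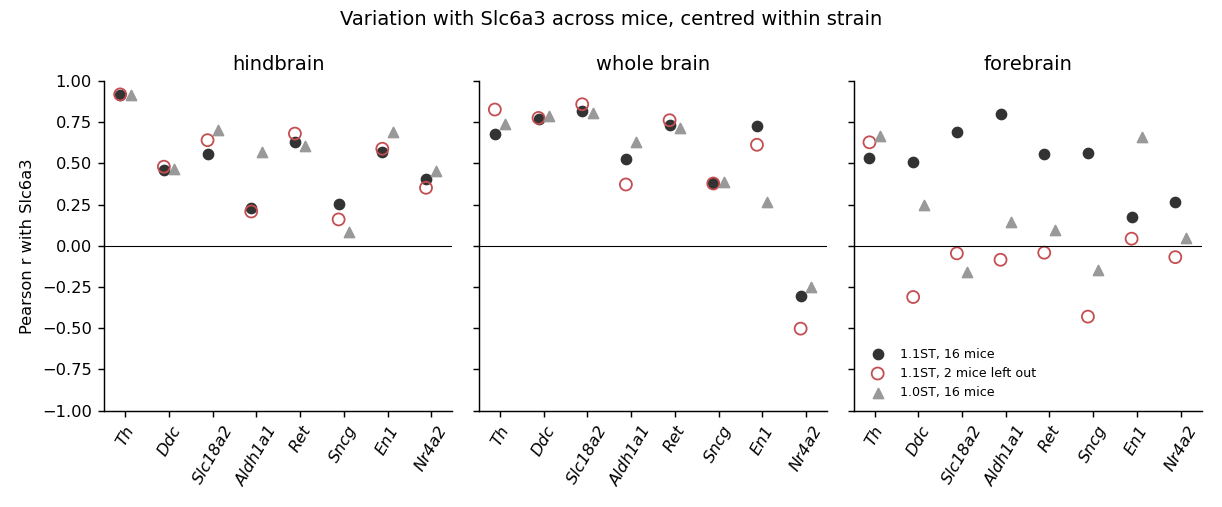
Pearson r with Slc6a3 across mice after centring within strain (y axis) for the other 8 genes (x axis), in hindbrain, whole brain and forebrain, with black circles for 16 mice on the 1.1ST arrays, open red circles with the 2 mice farthest from the Slc6a3 median left out and grey triangles for 16 mice on the 1.0ST arrays. Th is at 0.91 in hindbrain, and in forebrain most values drop to near 0 or below when 2 mice are left out.

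The hindbrain and forebrain of a mouse came from the same hemisphere, so their values were also correlated with each other. Of the 9 genes, none had a correlation between the dissections that passed the adjustment over 9 relations. The strongest was that of Slc6a3 (r = -0.59, permutation p = 0.0190, adjusted p = 0.171; rho = -0.48, permutation p = 0.0604), which was -0.28 without DD657 and DD678. These were the mice with the lowest Slc6a3 in hindbrain (9.07 in DD678 and 9.18 in DD657) and the highest in forebrain (7.71 in DD678 and 6.66 in DD657).

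Across all named clusters, the genes whose pattern over the 48 arrays was most like that of Slc6a3 were Chrna6 (Pearson r = 0.97), Slc18a2 (0.96), Shox2 (0.94), Ret (0.94), Ddc (0.94), Rab37 (0.94), Slc6a11 (0.93), Vav3 (0.93), Cda (0.93) and Agt (0.93). These values mostly describe the difference between the dissections, which the arrays share. Over the 16 hindbrains alone, centred on strain and treatment, the order changed: Th came first (0.92), followed by Csnk1e (0.90), Chrna6 (0.89), Rab4b (0.87), Clic5 (0.87), Gper1 (0.87), Srm (0.87), Rnf215 (0.86), Prr18 (0.86) and Cops7a (0.85). On the 1.0ST arrays of the same hindbrains Th (0.92) and Chrna6 (0.95) kept a close likeness to Slc6a3, while the other 8 lay between -0.18 for Rnf215 and 0.57 for Rab4b.

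Between strains the 9 genes differed little compared with the dissections. In hindbrain none of them was called in either direction with limma, against 9.33% of all clusters called higher and 7.85% called lower in NOD/ShiLtJ, and 1 had an unadjusted p below 0.05. This was Sncg, with 10.29 to 10.66 in NOD/ShiLtJ hindbrains (median 10.46), against 9.52 to 10.49 in C57BL/6J hindbrains (median 10.08). The NOD/ShiLtJ value was higher in 60 of the 64 pairs, and the difference was 0.41 (SE 0.18, FDR 0.0819). It was called on the 1.0ST arrays (0.35, FDR 0.0216) and with surrogate variables, which are part of the study's model (FDR 0.0087). It was also called without the whole brain of DD656 (FDR 0.0464) and without the forebrain of DD678 (FDR 0.0478), arrays that enter through the shared spread. Ret, with a difference of 0.24 (SE 0.17, FDR 0.292), was called with surrogate variables only (FDR 0.0444). Nr4a2 had a difference of -0.29 (SE 0.16, FDR 0.186), which was called without mouse DD656 (-0.38, FDR 0.0480). For Slc6a3 the difference in hindbrain was -0.24 with a 95% interval of -0.98 to 0.51, and for Th it was -0.05 with an interval of -0.59 to 0.49, and the number of arrays, 8 per strain and dissection, limits the precision.

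In whole brain 1 of the 9 genes was called, and it was again Sncg, against 5.13% of clusters higher and 5.59% lower. Its values were 8.65 to 10.40 in NOD/ShiLtJ (median 9.31) and 8.13 to 9.24 in C57BL/6J (median 8.81), and the strains overlapped. The difference was 0.58 (SE 0.18, FDR 0.0194 with limma), which is 1.49-fold. Without the whole brain of DD656, the highest of all, it was 0.42 (FDR 0.0856), and in vehicle mice alone 0.64 (FDR 0.150). Of the 16 mice left out in turn, DD656, BB687 and BB686 were those without which the call was lost, with FDRs up to 0.0930. Ret had a difference of 0.42 (SE 0.17, FDR 0.106), with 7.70 to 9.32 in NOD/ShiLtJ whole brains and 7.49 to 8.58 in C57BL/6J whole brains. Without the whole brain of DD656 the Ret difference was 0.26 (FDR 0.323), and without mouse BB707 it was 0.53 and called (FDR 0.0274). With surrogate variables Ret was called as well (FDR 0.0173).

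In forebrain Ret was the only one of the 9 genes called with all arrays, higher in NOD/ShiLtJ, where 5.11% of clusters were higher and 6.59% lower. It was 6.06 to 7.45 in NOD/ShiLtJ forebrains (median 6.72) and 5.86 to 6.76 in C57BL/6J forebrains (median 6.09). The ranges overlapped, and 55 of 64 pairs had the higher value in NOD/ShiLtJ. The difference of 0.57 (SE 0.17, FDR 0.0175 with limma) was 0.45 without the forebrain of DD678 (FDR 0.0643) and 0.29 on the 1.0ST arrays (FDR 0.142), and in vehicle mice alone it was 0.56 (FDR 0.200), so that the call was lost in each.

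Th lay between 6.57 and 8.57 in NOD/ShiLtJ forebrains (median 7.40) and between 7.61 and 9.27 in C57BL/6J forebrains (median 8.22). The 4 NOD/ShiLtJ vehicle mice were at 6.87, 7.22, 7.26 and 7.55, all below the 4 C57BL/6J vehicle mice at 7.61, 7.69, 9.20 and 9.27, whereas the NOD/ShiLtJ clozapine mice at 6.57, 8.22, 8.54 and 8.57 overlapped with the C57BL/6J clozapine mice at 7.67, 8.14, 8.31 and 8.67. The difference over both treatments was -0.72 (SE 0.27), with an FDR of 0.0577 with limma that missed the threshold, and it passed on the 1.0ST arrays (-0.61, FDR 0.0400), without the forebrain of DD678 (-0.87, FDR 0.0194) and in vehicle mice alone (-1.22, FDR 0.0228). It also passed without any one of BB686, BB703, BB708, DD675, DD676 or DD678, with the largest difference without DD676 (-0.87). Surrogate variables and a filter on means above 5 gave the call as well. The olfactory bulb marker mean moved with it, at 5.27 to 6.80 in NOD/ShiLtJ forebrains (median 5.82) and 5.86 to 7.24 in C57BL/6J forebrains (median 6.41). Of its 5 markers, 2 were called lower in NOD/ShiLtJ forebrain, Doc2g (-0.68, SE 0.22) and Tbx21 (-0.42, SE 0.13), and the others were Cdhr1 (-0.76), Eomes (-0.68) and Sp8 (-0.35). How much of the Th difference goes with the amount of olfactory bulb was not tested.

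Aldh1a1 was 8.70 to 9.86 in NOD/ShiLtJ forebrains (median 8.77) and 9.06 to 9.33 in C57BL/6J forebrains (median 9.22). The NOD/ShiLtJ value was higher in 8 of 64 pairs only, and the forebrain of DD678, at 9.86, was the highest of both strains. The difference was -0.25 (SE 0.13, FDR 0.18 with limma), and without that forebrain it was -0.39 and called (FDR 0.0115). It was also called without mouse DD678 (FDR 0.0135) and with surrogate variables.

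**Figure D5:**
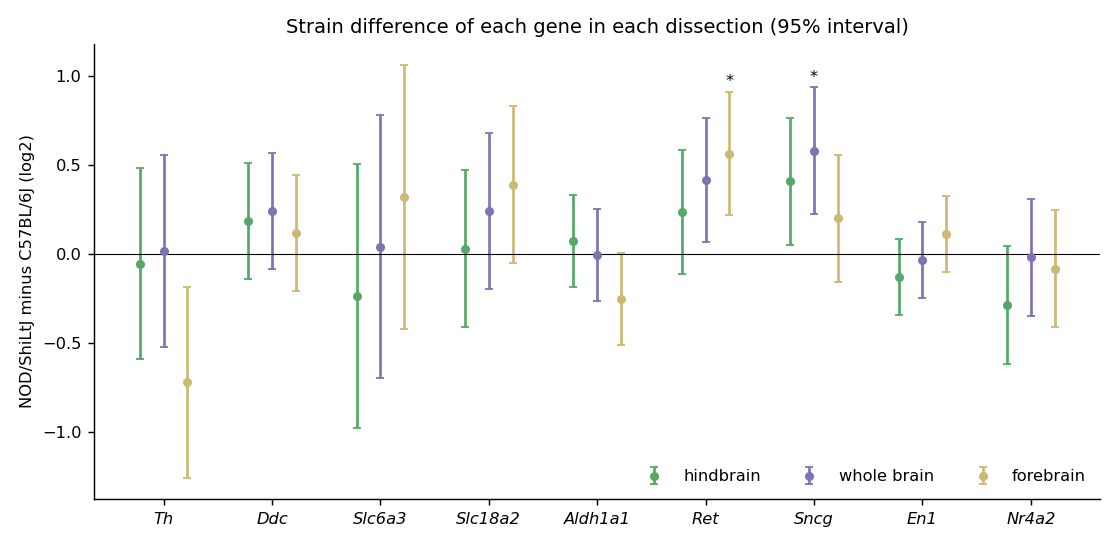
NOD/ShiLtJ minus C57BL/6J (y axis, log2) with its 95% interval for each gene (x axis) in hindbrain, whole brain and forebrain of 8 mice per strain, 1.1ST arrays, with an asterisk where the FDR is below 0.05. The asterisks are at Ret in forebrain (0.57) and Sncg in whole brain (0.58), and Th in forebrain is lowest (-0.72).

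Whether the strain difference itself differed between dissections was tested as an interaction. None of the 9 genes was called for hindbrain against forebrain (0.452% of clusters called higher and 0.653% lower with limma) or for whole brain against forebrain (0% of clusters in either direction), and none had an unadjusted p below 0.05 in either. The largest interactions were those of Th, 0.74 for whole brain against forebrain (SE 0.37, FDR 1.00, unadjusted p = 0.0521 in the limma fit) and 0.67 for hindbrain against forebrain (SE 0.37, FDR 0.530). A strain difference of Th particular to the forebrain was therefore not shown.

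Clozapine was not followed by a called change of any of the 9 genes 3 hours after injection. Over the 3 dissections together 0 of 9 were called with limma, against 0.957% of clusters called higher and 1.28% lower, and none had an unadjusted p below 0.05. The differences, clozapine minus vehicle, ran between -0.28 for Slc6a3 (SE 0.22, FDR 0.539) and 0.06 for Sncg (SE 0.11, FDR 0.717). With a mean per mouse as the only value, 0 of 9 were called as well. Nor was any of the 9 called in hindbrain (0.502% of clusters higher and 0.102% lower, 0 of 9 at an unadjusted p below 0.05), in forebrain (0.0106% higher and 0% lower, 0 of 9) or for a difference of the response between strains (0.0106% higher and 0% lower, 0 of 9). In forebrain the smallest p was that of Ddc (0.31, SE 0.16, FDR 0.837), whose values were 7.03 to 8.08 in clozapine mice (median 7.47) and 6.88 to 7.72 in vehicle mice (median 7.14).

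In whole brain 0 of 9 were called (0.0353% of clusters higher and 0.00706% lower), and 5 had an unadjusted p below 0.05, as had 2545 of the 28310 clusters. Slc6a3 was 8.56, 7.65, 8.86 and 6.68 in C57BL/6J clozapine mice and 8.91, 8.01, 5.90 and 8.77 in NOD/ShiLtJ clozapine mice, against 7.82, 9.09, 9.57 and 8.74 in C57BL/6J vehicle mice and 9.77, 8.46, 9.60 and 7.87 in NOD/ShiLtJ vehicle mice. The lowest whole brains, DD676 (5.90) and BB703 (6.68), had received clozapine and the highest, DD656 (9.77), vehicle, and the treatments overlapped. The difference of -0.95 (SE 0.36) had an FDR of 0.353 with limma. Th was 7.95 to 8.95 in clozapine mice (median 8.54) and 8.31 to 9.71 in vehicle mice (median 9.12), a difference of -0.59 (SE 0.25, FDR 0.419). The other 3 were Ret (-0.35, SE 0.17, FDR 0.475), En1 (-0.24, SE 0.10, FDR 0.443) and Nr4a2 (0.32, SE 0.16, FDR 0.485). In DD676 and BB703 the mean of all 9 genes was the lowest of the whole brains (7.69 and 7.90, against 9.10 in DD656). That mean includes Slc6a3, by which these whole brains were picked, so its low value is partly given in advance. A mean without Slc6a3 was not taken, and the part of the dissection in these values was not tested. The 6 striatal markers differed the other way in the same whole brains, by 0.26 to 0.59 (median 0.42, clozapine minus vehicle), with none called.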

How the data were processed

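RNA of 48 brain samples was hybridised to both Affymetrix formats, and the authors deposited RMA log2 intensities made with Affymetrix Expression Console 1.1, a tool named in the submitters' processing notes, keeping transcripts with mRNA annotation. These tables hold 28310 transcript clusters for 48 arrays per format, with array medians of 6.28 to 6.61 (1.1ST) and 8.14 to 8.23 (1.0ST). Of the clusters, 21207 have 1 gene symbol, 1867 have several and 5236 have none. Of those with 1 symbol, 99 were left unnamed because the Entrez gene identifier differed between formats. For each gene the cluster with 1 symbol was used, the one of highest mean where several existed. The members and gene lists were chosen with earlier results of these data known, and the genes named from a list are up to 3 called in each direction with the largest difference between hindbrain and forebrain, besides markers whose values bear on a result.

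The limma model (version 3.58.1 in R 4.3.3) held 6 means of dissection and strain, a treatment term and the mouse as a random block (correlation 0.0388), with two-sided tests. The FDR was that of the study's methods, which scales by the estimated share of true nulls, called below 0.05 over all clusters. Clozapine effects by dissection and by strain came from a model with 12 group means. Residuals of the same mouse correlated by 0.0953 between forebrain and hindbrain, 0.0495 between forebrain and whole brain and 0.0169 between hindbrain and whole brain, the pairing being that of samples from the same animal. Surrogate variables, part of the study's model, were left to an alternative. Batch was not among the labels used here, and the 5 variables, built without it, took up part of the dissection difference (r2 of 0.0357 to 0.222). Whether a batch term would change this was not tested. Correlations used 100000 permutations within strain in scipy 1.17.1, or all of them for 8 mice. Clozapine and vehicle mice were pooled in these permutations. The fit was tested on simulated data. Alternatives were the 1.0ST arrays, surrogate variables, other blocks, the Benjamini-Hochberg adjustment, a filter on low means, the hour of kill, vehicle mice or a strain alone, and leaving out single mice or arrays.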

Additional observations from a re-analysis of the deposited data

Results flagged for a closer look

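Of 108 groups of 4 mice (9 genes, 3 dissections, 2 strains, 2 treatments and 1 format), 3 held a mouse whose gap to the others was above Dixon's critical value as a share of the group's range, where chance gives about 1 in 20 groups. In forebrain of NOD/ShiLtJ vehicle mice, DD657 had the highest Slc6a3 (6.66, against 5.39 to 5.59 in the other 3) and the highest Aldh1a1 (9.04, against 8.70 to 8.74). In whole brain of C57BL/6J clozapine mice, BB703 had the lowest Ddc (7.79, against 8.36 to 8.48).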

How the results depend on the processing

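All 9 differences between hindbrain and forebrain and between hindbrain and whole brain kept direction and call under each alternative. No called result reversed, but uncalled differences near 0 changed sign, such as that between strains in hindbrain for Slc6a3 (-0.39 to 0.07) and Th (-0.16 to 0.09). Between whole brain and forebrain the 1 gene called lower, Nr4a2, was 0 with 5 surrogate variables, no replicate block, a fixed replicate block, the hour of kill, vehicle mice only, each strain alone, the Benjamini-Hochberg adjustment, or without the whole brain of DD656 or the forebrain of DD678, and 0 to 1 leaving out single mice. Between strains in forebrain, the 1 gene called higher became 0 on the 1.0ST arrays, in vehicle mice and without the forebrain of DD678 (0 to 1 leaving out single mice). The 0 called lower became 1 on the 1.0ST arrays, with a filter on means above 5 and in vehicle mice, 2 with surrogate variables and 2 without the forebrain of DD678 (0 to 2). In hindbrain the 0 called higher became 1 on the 1.0ST arrays, 2 with surrogate variables, and 1 without either array, and the 0 called lower became 0 to 1 leaving out single mice (Nr4a2, without DD656). In whole brain the 1 called higher became 2 with surrogate variables and 0 in vehicle mice or without the whole brain of DD656 (0 to 2). Of the 24 relations with Slc6a3, 7 passed, against 12 on the 1.0ST arrays, 7 in NOD/ShiLtJ alone and 1 in C57BL/6J alone, and of the 9 with the olfactory bulb markers 1 passed, against 2 on the 1.0ST arrays. The replicate block otherwise changed no call, and no clozapine call appeared under any alternative. Each gene has 1 cluster, so averaging clusters changed nothing. Leaving out the forebrain of DD678 and the olfactory bulb relation were chosen after seeing the data. The causes of these changes were not tested.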
